A study of Homo sapiens with 16 samples.

Results

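Sites bound by p65 were compared between SW480 cells that expressed ERβ and SW480 mock cells, 3 p65 ChIP-Seq tracks of each, read beside 1 input track of each. Every 200-bp bin of chromosomes 1 to 22 and X with a mean signal of at least 1 over the 6 p65 tracks was taken, which gave 94370 bins of 15155200 in all. In the 5809 bins where the p65 signal was at least 4 times the input, 3616 passed a limma test as higher with ERβ (62.2%) and 2 as lower (0.0344%). These changes are relative to the median change of all bins, most of them input-like. Relative to the median of the 5809 bins, 826 were higher and 584 lower. Without replicate 2, 2038 bins of this class were higher. That class is set on all 6 tracks, so the ERβ tracks can bring a bin into it, and where it was set on the mock tracks alone, with a mean mock signal of at least 2 and at least 4 times the input, 907 of 1880 bins were higher (48.2%) and 2 lower (0.106%). The largest gains lay at TNFAIP2, CXCR6, SGPP2 and EML2 among promoters and near MMADHC, POU5F1B, NTM and TRIM56 among distal regions, with p65 signals of 5.37 to 12.6 in the first ERβ library against 0.193 to 1.79 in the first mock library. Promoters of the NFκB feedback genes TNFAIP3 and NFKBIA, among the most strongly bound in mock cells, did not pass the test with all 3 replicate numbers, and NFKBIA passed without replicate 1.

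NFκB is a family of dimeric transcription factors that drives inflammatory gene expression, and p65, encoded by RELA, is its main activating subunit. In resting cells p65 is held in the cytoplasm by inhibitors such as IκBα. TNFα, an inflammatory cytokine, triggers the breakdown of these inhibitors, so that p65 enters the nucleus and binds κB sites near chemokine, cytokine and survival genes as well as near genes of its own inhibitors. ERβ, encoded by ESR2, is a nuclear receptor for estrogen that is present in normal colon epithelium and is often lost in colon cancer.

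SW480 is a human colorectal adenocarcinoma line. The ERβ cells had been stably transfected with ERβ and the mock cells with an empty vector, and both were kept under blasticidin. All cells, mock cells included, were treated with TNFα at 30 ng/ml for 30 min, so the comparison is of ERβ against mock under TNFα and no untreated sample was analysed here. Chromatin was crosslinked with DSG for 45 min and with 1% formaldehyde for 10 min and pulled down with a mouse monoclonal p65 antibody. ERβ was exogenous and the receptor was carried by a stably transfected line, so the effect of ERβ and of that line's own history cannot be told apart, and the cells received no estradiol. The ERβ input is described as coming from another series of samples.

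The ERβ status in the labels was checked at ESR2 itself, since a transfected coding sequence lacks introns. Signal in the 8 coding exons over that in the introns was 2.63, 3.28 and 2.89 in the ERβ p65 tracks and 1.56, 1.61 and 1.36 in the mock p65 tracks, with 1.92 in the ERβ input and 1.57 in the mock input. All ERβ tracks lay above all mock tracks. The tracks had been scaled by the authors to 10000000 tags each, so the sequencing depth behind a value is not known from them, and no interval for counting error is given. Signal below is the tag density per base on that scale, and its mean over the genome was 0.310 to 0.321 in the 8 tracks. The 14743 bins just above the minimum, with a mean signal of 1 to 1.05, had a median change of 0.00077 before centring, and the 17991 bins just under it, from 0.95 to 1, had 0.0012.

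Sequences of a few regions are shown as picked examples of large gain and of strong binding with smaller change. Strong signal did not go with small change in general. Among 5 groups of bins of 4 times input or more by mean signal, the median change was 0.57 in the weakest and 0.63 in the strongest. The sequences are the forward strand of GRCh38, read from the reference genome. Matches to the κB, AP-1 (TGACTCA or TGAGTCA) and RUNX (TGTGGTC or TGTGGTT) motifs on either strand are in capitals. κB matches are 10 letters long and the others 7. The first 4 are regions of large gain, and the last 3 are strongly bound regions that did not pass the test with all 3 replicate numbers. Without replicate 1, BIRC3 and TNFSF10 passed as higher at 0.53 and 0.50, and IRAK2 did not at 0.27.
TNFAIP2, chr14:103122401-103122600: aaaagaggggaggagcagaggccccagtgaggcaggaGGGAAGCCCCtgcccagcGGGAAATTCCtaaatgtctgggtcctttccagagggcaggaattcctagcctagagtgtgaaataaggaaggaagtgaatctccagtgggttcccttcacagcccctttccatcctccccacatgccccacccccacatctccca
CXCR6, chr3:45942601-45942800: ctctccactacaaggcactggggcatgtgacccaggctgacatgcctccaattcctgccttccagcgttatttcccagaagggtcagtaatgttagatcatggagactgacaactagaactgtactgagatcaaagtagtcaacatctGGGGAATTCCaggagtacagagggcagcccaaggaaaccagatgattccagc
NTM, chr11:132065001-132065200: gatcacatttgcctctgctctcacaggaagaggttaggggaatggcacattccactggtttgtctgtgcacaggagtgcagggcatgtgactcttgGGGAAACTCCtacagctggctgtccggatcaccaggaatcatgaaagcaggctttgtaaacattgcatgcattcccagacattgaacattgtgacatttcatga
MMADHC, chr2:149741601-149741800: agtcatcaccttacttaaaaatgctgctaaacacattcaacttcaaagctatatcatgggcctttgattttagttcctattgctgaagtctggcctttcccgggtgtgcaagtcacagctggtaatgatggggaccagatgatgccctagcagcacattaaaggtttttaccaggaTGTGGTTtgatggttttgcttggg
BIRC3, chr11:102317201-102317400: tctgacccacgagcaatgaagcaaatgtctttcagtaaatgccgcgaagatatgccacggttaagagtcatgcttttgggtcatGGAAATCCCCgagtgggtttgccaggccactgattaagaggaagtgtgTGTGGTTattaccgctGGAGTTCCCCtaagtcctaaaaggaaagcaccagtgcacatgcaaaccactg
TNFSF10, chr3:172592201-172592400: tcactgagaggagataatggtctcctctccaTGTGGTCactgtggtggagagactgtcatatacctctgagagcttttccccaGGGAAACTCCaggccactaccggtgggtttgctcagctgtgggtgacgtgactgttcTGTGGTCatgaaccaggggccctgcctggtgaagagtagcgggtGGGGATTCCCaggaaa
IRAK2, chr3:10192201-10192400: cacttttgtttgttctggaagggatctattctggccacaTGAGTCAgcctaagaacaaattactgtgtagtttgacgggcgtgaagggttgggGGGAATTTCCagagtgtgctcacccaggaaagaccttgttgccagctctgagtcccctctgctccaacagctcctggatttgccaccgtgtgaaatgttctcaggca
In the first group κB matches lie in 3 of the 4, and the MMADHC bin holds a RUNX match and none to κB. All 3 of the second group hold a κB match too.

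p65 signal was higher with ERβ in bins of 2 times input or more, which were chosen with the ERβ tracks included. The groups overlapped in bins under 2 times input. Over the 5809 bins of 4 times input or more, the median signal was 2.66, 4.74 and 4.39 in the ERβ tracks and 1.53, 1.81 and 2.08 in the mock tracks. Every ERβ track was above every mock track, and the first ERβ track was the lowest of its group. On the log2(signal + 1) scale the library medians averaged 2.27 ± 0.35 with ERβ and 1.48 ± 0.14 in mock cells (SD, n = 3 each; two-sided exact permutation test, p = 0.1, the smallest that 3 against 3 allows). Since the ERβ tracks helped to choose these bins, that order is favoured by the choice. In the 1880 bins chosen on the mock tracks alone the library medians were 2.39, 3.17 and 3.01 with ERβ and 2.08, 2.21 and 2.29 in mock cells on the same scale, again without overlap (two-sided exact permutation test, p = 0.1). The ERβ input was the lower of the 2 inputs in every class of bins, with medians of 0.40 and 0.54 in bins of 4 times input or more.

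**Figure D1:**
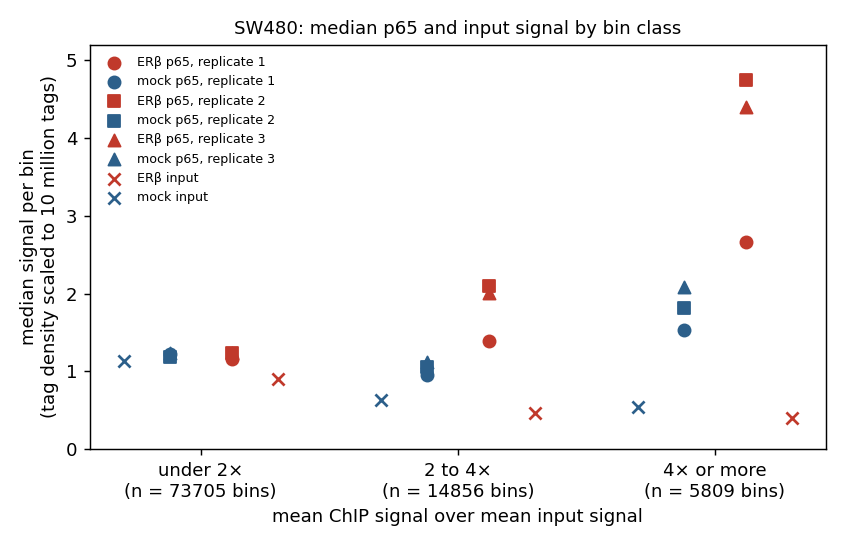
Median signal per bin (y axis, tag density scaled to 10000000 tags) in SW480 by class of bin (x axis, mean p65 signal over mean input signal), with one point per p65 track and crosses for the inputs. ERβ and mock tracks overlap in the 73705 bins under 2 times input, and all ERβ tracks lie above all mock tracks in the other classes.

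The same order held, at a smaller size, in the 14856 bins of 2 to 4 times input, where medians were 1.39, 2.10 and 2.01 with ERβ and 0.953, 1.05 and 1.13 in mock cells. The ERβ tracks helped to choose this class too, and its mock medians lay near the minimum mean signal of 1. That order is therefore favoured by the choice, and no class of this range was set on the mock tracks alone. In the 73705 bins under 2 times input, which made up 78.1% of the bins taken, the medians were 1.15, 1.24 and 1.24 with ERβ and 1.22, 1.18 and 1.23 in mock cells, and the groups overlapped. These bins had entered the set through a coverage that the inputs shared, with input medians of 0.903 and 1.14. Bins of 4 times input or more held 0.40%, 0.709% and 0.645% of all signal in the ERβ tracks and 0.257%, 0.296% and 0.319% in the mock tracks.

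Each bin was then tested after the median change of all bins had been taken off within each replicate number. These median changes on the log2(signal + 1) scale, ERβ minus mock, were 0.015, 0.13 and 0.10 for replicates 1, 2 and 3. The difference of the library medians, 0.070, did not separate the groups (1.21 ± 0.057 with ERβ and 1.14 ± 0.020 in mock cells, SD, n = 3; two-sided exact permutation test, p = 0.2). With limma and replicate number as a block, 8958 of the 94370 bins were higher with ERβ (9.49%) and 1553 were lower (1.65%) at an adjusted p under 0.05. Among bins of 4 times input or more 62.2% were higher and 0.0344% lower, among bins of 2 to 4 times input 29.6% and 0.0875%, and among bins under 2 times input 1.29% and 2.09%.

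Without the replicate block 5700 bins were higher and 520 lower, without replicate 2 the counts were 4226 and 403, and without replicate 3 they were 5490 and 609. Among bins of 4 times input or more, 2431 were higher without the block and 2038 without replicate 2. Relative to the median of the bins of 4 times input or more, each change is lower by 0.66, which leaves 826 of those 5809 bins higher and 584 lower, so the direction stated for a single region is relative to the mostly input-like bins. The sources name no spike-in, so more p65 on chromatin and a higher yield of the pull-down cannot be told apart in the shared part of the rise.

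Bins could enter the class of 4 times input or more, like that of 2 to 4 times input, through either condition. In 3340 of the 5809 (57.5%) the mock tracks alone lay under 4 times input, and 73.7% of these were higher, a count that the way they entered favours. In 416 of the 5809 (7.16%) the mock tracks lay under 2 times input, and all 416 were higher. A call or p-value at a bin whose mock tracks lie near input is therefore no test of direction. Within the class, where the mock tracks alone reached 4 times input at any mock signal (2469 bins), 46.7% were higher and 0.081% lower, with a median relative change of 0.51. When the 5809 bins were put in 5 groups of equal number by mean signal, the median relative change was 0.57, 0.66, 0.67, 0.69 and 0.63 from the weakest to the strongest, and 54.9% to 65.8% of a group were higher with ERβ. In the weakest group the median signal was 2.06 with ERβ and 0.900 in mock cells, so these groups do not rank binding in mock cells. As a log2 ratio of ERβ to mock signal with no pseudocount, the medians went from 1.16 in the weakest group to 0.87 in the strongest. Merged across gaps of up to 200 bp, the bins formed 31510 regions, of which 3774 had a highest bin of 4 times input or more. Of these regions 2535 (67.2%) were higher and 2 (0.053%) lower, and in 2124 of them (56.3%) all 3 ERβ tracks exceeded all 3 mock tracks.

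**Figure D2:**
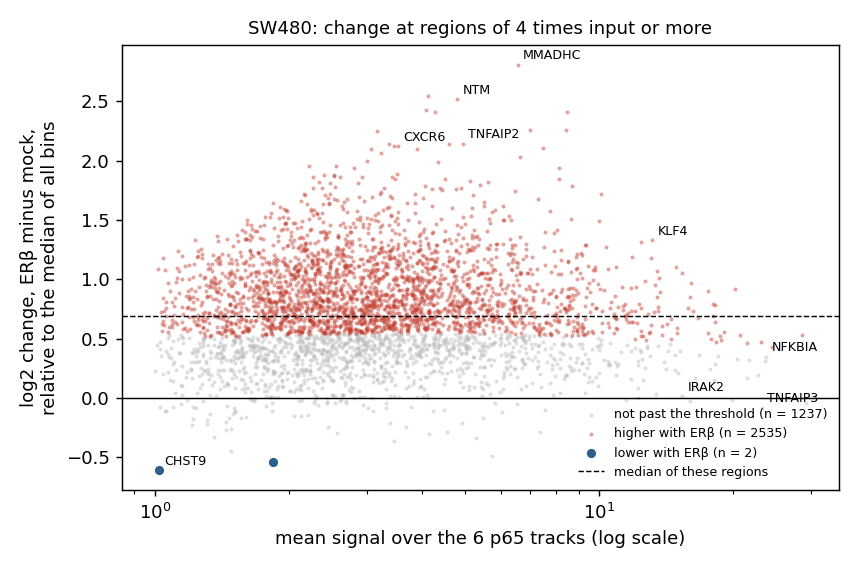
Change in p65 signal (y axis, log2(signal + 1), ERβ minus mock, relative to the median of all bins) against the mean signal over the 6 tracks (x axis, log scale) for the 3774 regions of 4 times input or more in SW480, one point per region. Of these, 2535 passed the test as higher and 2 as lower, and TNFAIP3 and NFKBIA lie at the right with changes of -0.08 and 0.35.

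The difference in rise between promoters and distal regions was small, and its sign depended on the bins taken. A bin was called promoter when its centre lay from 1 kb upstream to 100 bp downstream of a transcription start site (TSS) of a protein-coding gene, and distal otherwise. Among bins of 4 times input or more, 1125 (19.4%) were promoter bins, with a median relative change of 0.61 and 58.7% higher, and 4684 were distal, with 0.66 and 63.1%. No promoter bin of this class was lower in the limma test, at an unadjusted p under 0.05 either. By distance, the median change was 0.69 for the 1600 bins within 10 kb of a TSS but outside promoters, 0.66 for the 2201 bins at 10 to 100 kb and 0.62 for the 883 bins farther away. Per track, the promoter median minus the distal median was 0.23, 0.29 and 0.23 with ERβ and 0.30, 0.39 and 0.28 in mock cells on the log2 scale, a difference of -0.076 (unpaired two-sided exact permutation test, p = 0.2). Within replicate numbers it was -0.072, -0.11 and -0.049, negative in 3 of 3. Over all 94370 bins, most of them input-like, promoters moved up against distal bins by 0.13 (p = 0.1 in the same exact permutation test).

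The promoter region of largest gain was that of TNFAIP2, a gene named for its induction by TNFα. At chr14:103122401-103122600, in an intron of the annotated TNFAIP2 gene and 960 bp upstream of the nearest start, the signal was 7.03, 8.99 and 10.3 with ERβ and 0.840, 1.09 and 1.31 in mock cells. The ERβ tracks stood far above the mock tracks, the inputs were 0.316 and 0.626, and the relative change was 2.14 ± 0.20 (SE; limma adjusted p = 1.06e-21). The mock tracks lay under 4 times input, so the bin entered the class through the ERβ tracks. It was also picked for its gain, so that p-value is no test of direction.

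CXCR6 encodes the receptor for the chemokine CXCL16. Its promoter bin at chr3:45942601-45942800, which also lies in an intron of FYCO1, went from 0.484, 0.720 and 0.562 in mock cells to 6.94, 7.92 and 4.49 with ERβ, a relative change of 2.12 ± 0.20 (SE; limma adjusted p = 1.01e-21). The mock tracks lay at the level of the inputs, 0.442 and 0.650, so the bin entered the class through the ERβ tracks and its p-value is no test of direction. SGPP2, a phosphatase that acts on sphingosine-1-phosphate, had 5.37, 6.46 and 7.73 with ERβ and 0.764, 1.10 and 1.64 in mock cells at its promoter, chr2:222423801-222424000, a change of 1.72. EML2, which encodes a microtubule-associated protein, had 6.82, 10.0 and 9.13 against 1.79, 1.83 and 1.64 in a bin that overlaps its UTR, chr19:45642401-45642600, a change of 1.71. At none of the 4 promoters did an ERβ track overlap a mock track. All 4 were picked for their gain, with a mean mock signal under 4 times the mean input, so this separation was favoured by the choice.

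The largest gain of any region in this class lay between genes, 153923 bp upstream of MMADHC, a gene of cobalamin metabolism that is only its nearest gene. At chr2:149741601-149741800 the signal was 12.6, 15.3 and 9.08 with ERβ and 0.848, 1.04 and 0.454 in mock cells, with inputs of 0.340 and 0.540. All mock tracks were close to input and all ERβ tracks far above it, and the relative change was 2.81 ± 0.20 (SE; limma adjusted p = 8.1e-36). This region entered the class through the ERβ tracks, so that p-value is no test of direction. An intron of NTM, which encodes the adhesion protein neurotrimin, held 7.84, 10.7 and 8.27 with ERβ and 0.749, 0.963 and 0.249 in mock cells at chr11:132065001-132065200, a change of 2.52. The inputs there were 0.45 and 0.97, so the NTM region too entered the class through the ERβ tracks.

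The region nearest to TRIM56, an E3 ubiquitin ligase of innate immunity, lay between genes. Its signal was 6.31, 10.9 and 5.77 with ERβ and 0.193, 0.607 and 0.663 in mock cells, a change of 2.43. The ERβ tracks did not overlap the mock tracks. With inputs of 0.45 and 0.522 the mock tracks lay near or under input, so the region entered the class through the ERβ tracks. It was also picked for its gain, so this separation was favoured by the choice.

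On the long arm of chromosome 8, in the stretch from POU5F1B to beyond MYC, 7 regions of 4 times input or more were found and differed widely from each other. POU5F1B is a retrogene related to the pluripotency factor OCT4, and MYC encodes a transcription factor that drives growth. At chr8:127247401-127247600, nearest to POU5F1B, the signal was 9.55, 8.35 and 5.64 with ERβ and 0.320, 0.622 and 0.286 in mock cells, a change of 2.55 ± 0.20 (SE; limma adjusted p = 1.93e-30). With inputs of 0.834 and 0.55 the mock tracks lay near or under input, so this p-value is no test of direction. The 4 next regions changed by 2.41, 1.77, 2.10 and 2.26. The 2 regions farthest along, both assigned to MYC and the 2 of highest mean signal of all, stood apart from these.

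At chr8:128035201-128035400 the signal was 18.8, 41.3 and 30.8 with ERβ and 24.2, 28.5 and 31.7 in mock cells, where the groups overlapped and the relative change was -0.038 ± 0.14 (SE; limma adjusted p = 0.896). At chr8:128176801-128177000 it was 27.5, 41.2 and 36.1 against 24.0, 21.8 and 20.9, with no overlap, and a change of 0.53 (limma adjusted p = 0.00247). The inputs were high at these 2 bins, 3.95 and 5.84 at the first and 2.62 and 3.37 at the second, and the part of a local gain of DNA in these values was not tested.

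Among regions of 4 times input or more, decreases were few and small. No promoter region of this class met the rule for a decrease, and 2 distal regions of 1 bin each did. Over all bins, most of them input-like, 75 of 17108 promoter bins and 1478 of 77262 distal bins were lower, beside 1.65% of all bins. Without replicate 1, and without the replicate block, no bin of 4 times input or more was lower. In an intron of CHST9, a sulfotransferase gene, at chr18:27014201-27014400, the signal was 0.289, 1.52 and 0.316 with ERβ and 1.36, 1.37 and 1.26 in mock cells, and the second ERβ track lay above all mock tracks. The relative change was -0.61 ± 0.21 (SE; limma adjusted p = 0.0365), and the call was lost without the block, without centring, with centring on bins of like signal and without replicate 1 or 3 (limma adjusted p = 0.0778 to 0.234). In an intron of GABBR2, which encodes a subunit of the GABA-B receptor, at chr9:98427601-98427800, it was 0.674, 1.39 and 2.27 against 2.08, 1.97 and 2.70, so that the groups overlapped, and the change was -0.54 ± 0.19 (SE; limma adjusted p = 0.0459). That call was lost without the block, without centring and without any 1 of the replicates (limma adjusted p = 0.0540 to 0.373).

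Of the 5 regions of highest mean signal, 2 passed the test as higher and 3 did not pass, a split that changed when 1 replicate number was left out. The 2 that passed, the second region near MYC and JUNB, lost the call without replicate 2 (0.41 and 0.20) and without replicate 3 (0.47 and 0.52). Of the 3 that did not, NFKBIA and TNFSF10 passed without replicate 1 (0.64 and 0.50). Besides the 2 regions near MYC, the highest mean signals were found at JUNB, NFKBIA and TNFSF10. The region assigned to JUNB, a subunit of the AP-1 factor, lay in an intron of HOOK2 at chr19:12793601-12793800 and held 21.2, 37.8 and 28.9 with ERβ and 19.0, 18.1 and 22.2 in mock cells. One mock track exceeded the lowest ERβ track, and the change of 0.43 passed the test (limma adjusted p = 0.0306), but not without the replicate block (limma adjusted p = 0.0994). NFKBIA encodes IκBα, and its promoter at chr14:35403801-35404000 held 20.6, 36.4 and 25.6 against 24.1, 21.3 and 14.7. These groups overlapped, with a change of 0.35 ± 0.15 (SE; limma adjusted p = 0.106) that passed without replicate 1 (0.64; limma adjusted p = 0.00183) and without centring (0.43; limma adjusted p = 0.0334).

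The region 68826 bp upstream of TNFSF10, which encodes the death ligand TRAIL, gave 18.9, 34.7 and 27.9 with ERβ and 19.6, 23.5 and 17.0 in mock cells, a change of 0.31 (limma adjusted p = 0.166). At the promoter of TNFAIP3, which encodes the ubiquitin-editing inhibitor A20, chr6:137867201-137867400 held 16.1, 30.7 and 23.9 against 24.95, 24.37 and 19.50, a change of -0.082 ± 0.15 (SE; limma adjusted p = 0.78) whose sign turned without centring and without replicate 1 (0.19). Centred on bins of 4 times input or more, TNFAIP3, IRAK2 and the first region near MYC passed as lower, at -0.74, -0.64 and -0.70. Other regions of the same gene did move. Of the 7 regions of 4 times input or more assigned to TNFAIP3, those at chr6:137697601-137697800, chr6:137811401-137811600 and chr6:137873401-137873600 rose by 0.93, 0.63 and 0.56, and the other 4 changed by -0.10 to 0.028 and did not pass.

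**Figure D3:**
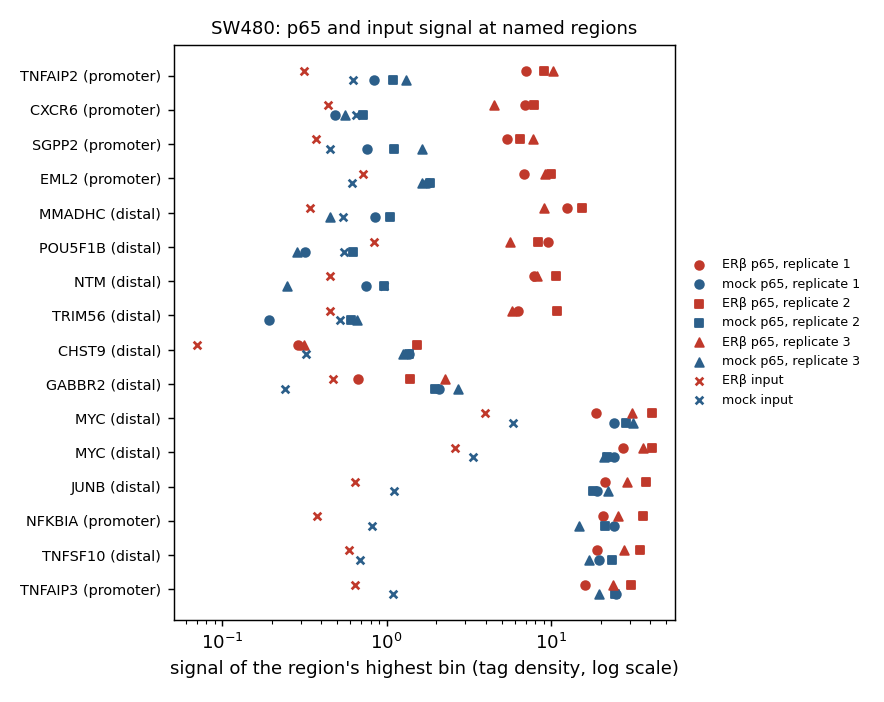
Signal of the highest bin (x axis, tag density, log scale) at the regions of largest increase or decrease, the 5 of highest signal and the TNFAIP3 promoter in SW480 (y axis), one point per p65 track and crosses for the inputs. Mock tracks lie near the inputs at MMADHC, and the ERβ and mock tracks overlap at NFKBIA and TNFAIP3.

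Gene groups were read at the highest region of 4 times input or more that was nearest to each gene. In all, 2926 genes had such a region, of which 1942 (66.4%) were higher with ERβ, 1 (0.0342%) was lower and 983 did not pass, with a median relative change of 0.68. The 23 lists used held 185 genes with such a region, of which 136 were higher, with 90 without the replicate block, 78 without replicate 2, 93 without replicate 3 and 149 without replicate 1. Of all bins of 4 times input or more, 41.8% were higher without the block, 35.1% without replicate 2, 42.4% without replicate 3 and 65.3% without replicate 1. No list below was tested against these shares or against the 66.4% of all genes. Both a gene's entry and the region that stood for it were set on the mean of ERβ and mock tracks together. A gene can thus be counted at a site gained with ERβ, which favours higher calls in these counts and in the lists below. Gene counts on regions chosen by the mock tracks alone were not made. In this class of bins, 73.7% were higher with the mock tracks under 4 times input and 46.7% with them at or above it. None of the 185 was lower in the limma test, at an unadjusted p under 0.05 either. Against the median of the bins of 4 times input or more, which is 0.66 above zero on this scale, genes below that value would carry a negative sign.

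The list with the lowest median was that of NFκB inhibitors and feedback regulators, at 0.29, with 3 of 9 measured genes higher and 6 not past the test. That rank did not hold without replicate 1, or over all regions in place of the highest of each gene. Without replicate 1 the median was 0.59 with 5 higher, above the 0.58 of AP-1 subunits, and without replicate 3 only 1 was higher. Over all regions of these genes 14 of 26 were higher with a median of 0.58, against 0.69 over all 3774 regions, and DUSP phosphatases were lowest at 0.46. Those higher were NFKBIZ, NFKBID and ZC3H12A, at 0.71, 1.24 and 0.82. NFKBIZ and NFKBID encode nuclear IκB proteins, and ZC3H12A encodes an RNase that degrades cytokine mRNAs. The NFKBID region went from 1.57, 2.70 and 2.27 in mock cells to 5.72, 7.80 and 7.25 with ERβ, without overlap. Values at the genes that did not pass were 0.35 for NFKBIA, 0.29 for BCL3, 0.25 for TNIP1, 0.19 for NFKBIE, 0.039 for the deubiquitinase gene CYLD and -0.082 for TNFAIP3. These are at the highest region alone. Of 5 regions of 4 times input or more assigned to TNIP1, 4 were higher, with a median change of 1.03. At BCL3 2 of 5 were higher, with a median of 0.47. The median mean signal of this list was 13.5, against 3.17 for all genes.

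Of the 5 genes for NFκB subunits, all with a region, 3 were higher and the median was 0.49. NFKB1, which encodes p105 and p50, had 7.55, 15.0 and 12.6 at its promoter with ERβ and 3.63, 5.44 and 8.24 in mock cells, a change of 0.84 (limma adjusted p = 0.000358). RELA itself, which encodes p65, changed by 0.78 at a region 6842 bp from its TSS, and NFKB2, which encodes p100 and p52, by 0.49 at its promoter, a call lost without the block, without replicate 2 (0.27) and without replicate 3 (0.49). Without replicate 2 or 3 only 1 subunit gene was higher. RELB and REL gave 0.27 and 0.29 and did not pass, but RELB passed without replicate 1 at 0.58, where 4 of the 5 genes were higher. Among kinases and adaptors of the pathway 6 of 8 genes were higher, 3 without replicate 2, with a median of 0.82. TIFA, TANK and TRAF2, which encode adaptors that link receptors to the IκB kinases, changed by 1.56, 1.30 and 1.05, while IRAK2, a kinase-like adaptor of Toll-like and IL-1 receptors, held 10.8, 22.1 and 15.6 against 15.4, 15.3 and 12.9, a change of 0.016.

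Among 11 measured chemokine genes 7 were higher, 4 without replicate 2, and their median of 0.65 was near that of all genes. The region of CCL2, a chemokine that draws monocytes, went from 1.80, 1.92 and 4.28 in mock cells to 9.61, 17.4 and 13.7 with ERβ at chr17:34252601-34252800, a change of 1.94 ± 0.20 (SE; limma adjusted p = 1.58e-18). Promoters of CXCL1 and CXCL2, which attract neutrophils, changed by 1.21 and 1.17. The CXCL1 promoter held 9.81, 12.6 and 16.8 with ERβ and 3.32, 4.69 and 6.21 in mock cells. CXCL8, the neutrophil chemokine IL-8, held 4.58, 9.97 and 6.14 against 6.66, 4.75 and 4.57 at its promoter, where the groups overlapped and the change of 0.19 did not pass, nor did 0.31 at CXCL5, 0.41 at CX3CL1 and 0.074 at CCL28. CXCL5 and CX3CL1 passed without replicate 1.

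All 6 measured cytokine genes were higher, with a median of 0.79, and 3 without the block, without replicate 2 or without replicate 3. IL32 and LIF were among those lost, at 0.29 and 0.44 without replicate 2. A region 24333 bp from the TSS of IL1B, which encodes interleukin-1β, went from 0.410, 1.08 and 0.280 in mock cells to 3.82, 4.90 and 4.23 with ERβ, a change of 1.69. CSF2, which encodes the growth factor GM-CSF, changed by 1.11, and the promoters of IL32 and IL23A by 0.55 and 0.64. Of 12 measured genes for survival and apoptosis 11 were higher, against 66.4% of all genes, 7 without replicate 2 and 6 without replicate 3, with a median of 0.82. TRAF1, an adaptor of TNF receptors, had the largest change, 1.31, and BBC3 and PMAIP1, which encode the pro-apoptotic proteins PUMA and NOXA, changed by 1.12 and 1.03, as did the anti-apoptotic BIRC2, by 1.00.

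With all 3 replicate numbers, the survival gene that did not pass was BIRC3, which encodes the inhibitor of apoptosis cIAP2, and without replicate 1 it passed too (0.53), with 12 of 12 higher. Its promoter, whose sequence is printed with the others, held 19.5, 33.9 and 22.2 with ERβ and 20.5, 19.6 and 15.1 in mock cells, a change of 0.33 ± 0.15 (SE; limma adjusted p = 0.152). In the TNF receptor superfamily 6 of 7 genes were higher, 4 without the block, without replicate 2 or without replicate 3, with a median of 0.85. TNFRSF1B, which encodes TNF receptor 2, changed by 1.31 and the decoy receptor gene TNFRSF6B by 0.85.

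Among AP-1 subunits 4 of 5 measured genes were higher, 2 without the block or without replicate 2, with a median of 0.58, from 0.43 at JUNB to 1.20 at BATF. Regions of RUNX1 and RUNX3, which encode factors of the Runt family, were higher at 1.03 and 1.05, the only 2 of that list measured at 4 times input. The RUNX3 region held 3.77, 2.04 and 3.87 with ERβ and 0.654, 0.890 and 1.15 in mock cells. Of the KLF factors 4 of 6 were higher, with a median of 0.83. KLF4, a regulator of epithelial differentiation, had a strongly bound region at chr9:108075001-108075200, between genes and far upstream, with 13.4, 25.1 and 20.6 with ERβ and 4.81, 7.63 and 7.59 in mock cells, a change of 1.33. A region in an intron of KLF12 held 13.1, 26.4 and 23.7 against 6.06, 7.05 and 13.2, a change of 1.10, and its highest mock track exceeded its lowest ERβ track.

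DUSP phosphatases, which switch off MAP kinases, had 3 of 7 genes higher, 5 without replicate 1, and a median of 0.46, with DUSP4 at 1.46 and DUSP5 and DUSP6 at 0.23 and 0.26, not past the test. Of the circadian clock genes 3 of 6 were higher, 2 without the block, without replicate 2 or without replicate 3, with a median of 0.56. BHLHE40, a repressor of the clock, changed by 1.40, NPAS2, a partner of BMAL1, by 1.16 and TEF by 0.66, while PER1, CRY2 and RORA gave 0.29, 0.46 and 0.20 and did not pass.

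Adhesion and migration genes had 13 of 16 higher, 7 without the block or without replicate 2, with a median of 0.68. WNT5A, a secreted ligand of noncanonical Wnt signalling, had the largest change of any listed gene. Its region at chr3:55570601-55570800 went from 0.480, 0.470 and 0.510 in mock cells, at the level of the inputs of 0.277 and 0.436, to 6.47, 8.55 and 3.68 with ERβ, a change of 2.14 ± 0.20 (SE; limma adjusted p = 3.58e-22). The region entered the class through the ERβ tracks, so that p-value is no test of direction. ICAM1, an adhesion molecule for leukocytes, went from 3.40, 2.84 and 5.32 to 9.10, 12.0 and 12.5 at its promoter, a change of 1.27.

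In growth factor pathways the counts were 6 of 8 for the MAP kinase cascade, 3 of 4 for EGFR ligands and receptors, 10 of 12 for the TGFβ and BMP pathway and 10 of 11 for the Wnt pathway, with medians of 0.70, 0.79, 0.79 and 0.69. Without replicate 2 they were 3, 2, 5 and 4. SPRY4, a feedback inhibitor of receptor tyrosine kinases, changed by 1.64. An intron of EGFR, the receptor of epidermal growth factor, went from 1.49, 1.52 and 2.09 in mock cells to 6.40, 8.62 and 6.39 with ERβ, a change of 1.51, whereas ERBB2 gave 0.14 and did not pass. INHBA, which encodes a subunit of activin, changed by 1.76, the inhibitory SMAD6 by 1.46 and SMAD3 by 0.88, a call lost without replicate 2 (0.62). CTNNB1, which encodes β-catenin, had 5.10, 9.76 and 10.1 with ERβ and 0.962, 1.29 and 3.85 in mock cells at a region far upstream, a change of 1.60.

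Colon identity factors had 6 of 8 genes higher, 3 without the block or without replicate 2, and a median of 0.71, with FOXA2 at 1.36, SOX9 at 0.86 and CDX2 at 0.73. The call at SOX9 was lost without replicate 2 (0.64) and with centring on bins of like signal (0.52). Of 14 nuclear receptor genes 8 were higher, 5 without the block or without replicate 2, with a median of 0.67. PPARD, a fatty acid sensor, went from 1.93, 1.46 and 2.05 in mock cells to 7.86, 14.8 and 11.6 with ERβ, a change of 2.03, and PPARA changed by 1.51. ESR1, which encodes ERα, held 3.63, 8.19 and 5.83 against 3.13, 3.96 and 4.54 at its region, where the change of 0.37 did not pass (limma adjusted p = 0.236).

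Interferon and IRF genes had 8 of 9 higher, 4 without the block, without replicate 2 or without replicate 3, and a median of 0.65, with STAT3, a cytokine-activated factor, at 1.67 and IFNAR2, an interferon receptor, at 1.60. Ribosomal protein genes, listed as genes with no tie to NFκB, had a region in 4 of 44 (9.09%), against 2926 of 19962 genes in all (14.7%), and 2 of these were higher. The list of 18 genes that the study names for SW480 was chosen on these samples and is no independent evidence of direction. Of its 14 genes with a region 7 were higher, 4 without replicate 2 or 3, with a median of 0.48, from 0.19 at CXCL8 to 1.21 at CXCL1.

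**Figure D4:**
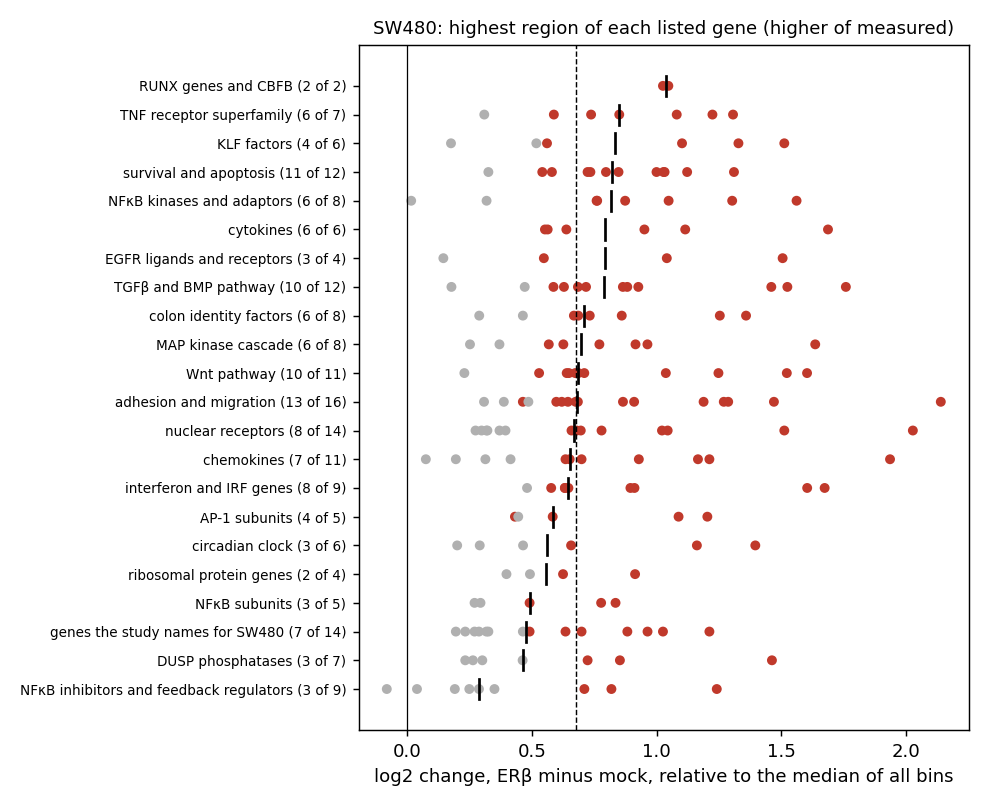
Relative change (x axis, log2(signal + 1), ERβ minus mock) at the highest region of each listed gene in SW480 for the gene lists shown (y axis), one point per gene, red where the test called it higher and grey where not. Black bars are list medians and the dashed line is the median of all 2926 genes, 0.68. NFκB inhibitors and feedback regulators have the lowest median, 0.29 at 1 region per gene, against 0.58 over all their regions.

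Sequence was not used to choose the bins, though the ERβ tracks were, and motif shares differed along the size of the change. A κB match lay in 48.0% of bins of 4 times input or more, in 25.4% of those of 2 to 4 times input and in 6.06% of those under 2 times input, against 2.95% of every 100th bin of the genome (n = 145547). When the bins of 4 times input or more were put in 5 groups of equal number by relative change, the share with a κB match was 38.1%, 41.4%, 48.4%, 51.5% and 60.6% from the smallest to the largest change. RUNX matches went the same way, from 7.75% to 16.9%, with 6.14% in the genome bins. FOXA matches (TGTTTAC) went the other way, from 8.52% to 2.76%, with 3.17% in the genome bins, and AP-1 matches went from 12.5% to 9.82%, with 2.94%. The median mean signal of the 5 groups was 2.52 in the first and 2.92 to 3.02 in the others, where the mean is over ERβ and mock tracks, so that mock signal differed between groups that differ in change. The motifs can overlap each other and a match is no proof of a site.

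Per track, the median log2 signal of bins with a κB match minus that of bins without was 0.14, 0.18 and 0.15 with ERβ and -0.028, 0.035 and 0.041 in mock cells among bins of 4 times input or more. The ERβ tracks lay above the mock tracks by 0.14 on average (two-sided exact permutation test, p = 0.1, the smallest possible). Over all bins the same difference was 0.34 (exact permutation test, p = 0.1). κB matches lay in 48.0% of bins of 4 times input or more and in 6.06% of those under 2 times input. These classes had median relative changes of 0.65 and -0.097, and the part of that mix in the 0.34 was not tested. In bins of 4 times input or more, 69.5% of those with κB alone were higher with ERβ, 64.6% of those with κB and AP-1, 52.8% of those with AP-1 alone and 56.5% of those with neither. The palindromic estrogen response element GGTCANNNTGACC was found in 1 of the 5809 bins and in 0.0137% of the genome bins.

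**Figure D5:**
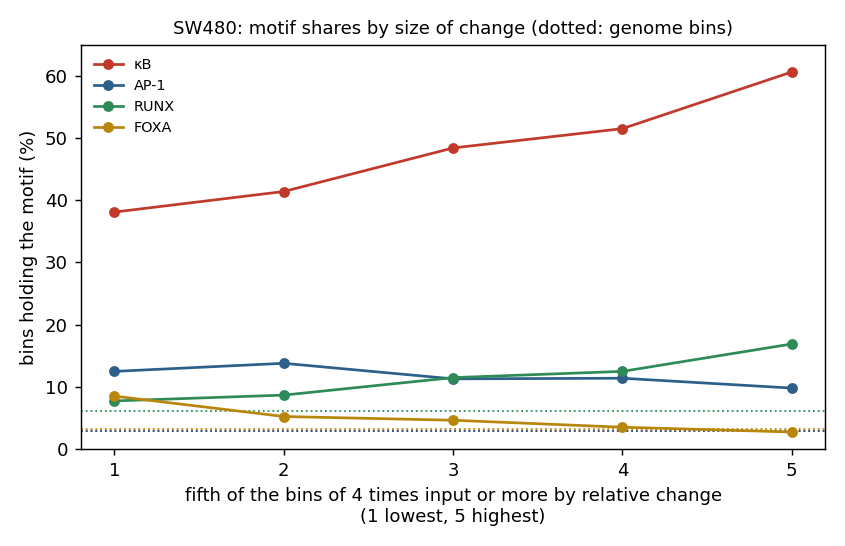
Share of bins holding a motif (y axis, percent) in the 5809 SW480 bins of 4 times input or more, put in 5 groups by relative change (x axis, 1 the smallest change). Dotted lines are the shares in every 100th bin of the genome. κB rises from 38.1% to 60.6% and RUNX from 7.75% to 16.9%, while FOXA falls from 8.52% to 2.76%.

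Of the 1553 bins that were lower with ERβ, 99.0% lay under 2 times input. Many sat in long stretches of raised coverage. In 22 windows of 1 Mb, each with at least 500 bins under 2 times input, on chromosomes 7, 8, 12, 15 and 16, lay 75.8% of all lower bins and 51.6% of all bins under 2 times input. The p65 signal was lower with ERβ in all 3 replicate numbers and the input was lower with ERβ in all 22, and in 9 of the 22 the p65 signal fell more than the input. Among these 9 were the windows at chr8:128000001-129000000, at -0.15 against -0.068, and at chr16:65000001-66000000, at -0.17 against -0.085. The p65 changes of windows are before centring, unlike the calls. Over all bins under 2 times input the median input change was -0.16, and the windows lay to either side of it. A lower ERβ input was thus not particular to them. The median p65 change of those bins before centring averaged -0.0072 over the 3 replicate numbers, and all 22 windows lay below it. The count of 9 sets changes with these unlike medians side by side. It therefore does not rank the p65 fall against the input fall. In the 4 windows at chr7:45000001-49000000 the p65 change was -0.14 to -0.11 on the log2 scale and the input change -0.16 to -0.093, with no bin under 2 times input higher and 542 lower. In the 7 windows at chr12:21000001-28000000 the p65 change was -0.067 to -0.036 and the input change -0.061 to -0.025. Median input in these stretches was 1.11 and 1.28 on chromosome 7 for ERβ and mock, several times the genome mean of 0.310 and 0.320. These bins are therefore described as raised coverage that the input shares, and the part of the input in the p65 difference was not tested.

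The rise was set beside the effect of ERβ in HT29, the other colon cancer line of the study. Its ERβ and mock cells had the same TNFα treatment. The paper states that the introduced ERβ was expressed at a higher level in SW480 than in HT29. Line and receptor level thus cannot be told apart here. The bins were chosen on SW480 signal and could enter through the SW480 ERβ tracks alone, so that a larger effect in SW480 is favoured by the choice. Over bins of 4 times input or more the median change before centring was 0.46, 0.98 and 0.78 in the 3 SW480 replicate numbers and -0.15, -0.090 and -0.17 in those of HT29 (exact permutation of the line labels over 6 pair differences, two-sided, p = 0.1, the smallest possible). In the limma interaction test the effect was larger in SW480 at 2817 of 5809 bins (48.5%) and smaller at 0, with 4267 and 3 at an unadjusted p under 0.05. Without the replicate block 561 of these were larger in SW480, without replicate 2 of both lines 1133, and without replicate 3 of both lines 1282. In the 1880 bins chosen on the SW480 mock tracks alone the median change before centring was 0.27, 0.89 and 0.70 in SW480 and -0.16, -0.14 and -0.23 in HT29 (two-sided exact permutation test, p = 0.1). The limma interaction test called 730 of these larger in SW480 (38.8%), but 26 larger without the replicate block (1.38%), 206 without replicate 2 and 223 without replicate 3, so the count of single bins depends on the block and on single replicates.

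Of the 56 named regions, 33 differed between the lines, all with the larger effect in SW480, beside 48.5% of all bins of 4 times input or more. These region calls were made with the replicate block only. They include the 8 regions named for the size of their increase in SW480, for which a larger effect there was built in, and among the 46 regions not named for the size of their change 25 differed. At the MMADHC region HT29 held 0.435 ± 0.16 with ERβ and 0.795 ± 0.34 in mock cells (SD, n = 3 each), and no HT29 input was read. At the EGFR intron HT29 held 9.62 ± 4.5 and 11.6 ± 4.3, with no test of levels between the lines. The TNFAIP2 promoter held 2.69 ± 0.84 and 3.51 ± 1.6 in HT29. At TNFAIP3 the difference between the lines was 0.034 ± 0.19 (SE; limma adjusted p = 0.945) and at CXCL8 0.29 ± 0.25 (SE; limma adjusted p = 0.547).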

How the data were processed

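Coverage tracks of p65 ChIP-Seq and input were analysed, 6 p65 tracks and 2 inputs of SW480, with 6 p65 tracks of HT29 for the comparison of lines. The deposited signal is tag density that the authors made with STAR on GRCh38, from uniquely mapped reads, and with HOMER, scaled to 10000000 tags and 100-bp fragments, with 1 library per track and stretches under 0.05 left out. The tracks hold no read counts, so the count test of the study was replaced by limma (version 3.58.1, R 4.3.3) on log2(signal + 1), with Benjamini-Hochberg adjustment over all bins and an adjusted p under 0.05. Depth is unknown from the tracks. A bin has 2 residual degrees of freedom of its own against 848.4 that limma takes from the spread of all bins, most of them input-like, so standard errors are nearly alike and very small p-values rest on that pooled spread. Without the block the pooled part is 32.4, and the adjusted p at MMADHC goes from 8.1e-36 to 4.9e-09.

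Signal was averaged in 200-bp bins (Python 3.11.15, numpy 2.4.6, pysam 0.24.0). Bins with a mean of at least 1 were kept and centred within each replicate number on the median change. Input was floored at 0.05 in the classes of fold over input. Replicate number was a block. Same-numbered ERβ and mock tracks deviated together in bins of 4 times input or more (correlations 0.29, 0.18 and 0.25), and less over all bins (0.19, 0.079 and 0.096). The study describes biological replicates, and the labels do not say what a number shares.

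Positions came from GENCODE 44. Bins up to 200 bp apart were merged, and the bin of highest mean signal stood for a region, assigned to the protein-coding gene with the nearest TSS. Named are the 4 promoter and 4 distal regions of largest increase and up to 3 of each of largest decrease that passed the test and moved one way in all 3 replicate numbers, the 5 of highest signal, and the 2 genes of highest signal in each list. The regions of largest increase or decrease and the 5 of highest signal were taken from regions of 4 times input or more. Other list members were named after their values were seen. The members and lists were chosen with earlier results of these data known. Alternatives changed the pairing, centring, pseudocount, signal minimum, bin grid, input handling, promoter width, variance estimate, class of bins and replicates. Some items of these lists and regions are not reported here. The script was tested on simulated data.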

Additional observations from a re-analysis of the deposited data

Results flagged for a closer look

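In the limma interaction test the effect of ERβ was larger in SW480 than in HT29 at 2817 bins of 4 times input or more (48.5%) and at 33 of the 56 named regions. The bins were chosen on SW480 signal, ERβ tracks included, which favours that direction, and the 2817 became 561 without the replicate block and 1133 without replicate 2. Of 1880 bins chosen on the SW480 mock tracks alone 730 were larger, and 26 without the block. The ERβ level was higher in SW480 than in HT29 by the paper's account, so line and level cannot be told apart. The values that follow are differences of the log2 changes, SW480 minus HT29. The 8 regions of largest gain were chosen for their change in SW480, so their differences are given as a description and test nothing. They were 2.36 at TNFAIP2, 2.26 at CXCR6, 1.80 at SGPP2, 1.59 at EML2, 3.09 at MMADHC, 2.66 at POU5F1B, 2.37 at NTM and 2.49 at TRIM56. The second region near MYC gave 0.56 and JUNB 0.85.

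In the NFκB pathway and among cytokines the differences were 0.63 at NFKB2, 0.83 at IL32 and 0.87 at LIF. Survival and receptor genes gave 0.83 at BID and 1.00 at TNFRSF6B, and interferon genes 1.11 at IFNGR2 and 0.91 at IRF1. Transcription factor genes gave 1.19 at MAFF, 1.68 at KLF4, 1.05 at SOX9 and 1.71 at PPARA. The promoter bin of RUNX1, at 3.00 times input with a change of 0.92 in SW480 and separate from the RUNX1 region of 4 times input or more, gave 1.18.

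Signalling and adhesion genes gave 1.21 at DUSP4, 0.75 at BCAR1, 1.09 at ARHGAP31, 1.18 at MAP4K4, 1.20 at TGFA, 1.74 at EGFR, 1.27 at SMAD3 and 0.71 at WNT10A. The ribosomal protein genes RPL3 and RPS2 gave 1.13 and 1.27. Groups of 3 libraries were not searched for outlying samples.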

How the results depend on the processing

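Depth is unknown from the tracks, each condition has 1 input, and no spike-in is named, so the change shared by all bound regions depends on the centring. Counts below are at the same threshold, and the causes of the shifts were not tested except where the construction shows them.

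Without the replicate block, 5700 bins were higher and 520 lower, and of the bins of 4 times input or more 0 were lower, while 43 of the 56 named regions kept their side of the threshold and 13 lost it. In the comparison with HT29 the fit with no replicate block gave 1107 bins larger and 69 smaller in SW480, and 561 larger among bins of 4 times input or more. Without replicate 1, 10 named regions gained the call (NFKBIA, TNFSF10, RELB, CXCL5, CX3CL1, BIRC3, DUSP10, CRY2, RRAS and VDR) and 2 lost it (CHST9 and GABBR2). Without replicate 2, 17 lost it, among them the second region near MYC, JUNB, NFKB2, MAP3K8, IL32, LIF, BID, BCAR1, SMAD3, TGIF1, WNT10A, TCF7L2, SOX9, IRF1 and RPS2, and without replicate 3, 14 did. Leaving out 1 replicate number at a time gave 4226 to 8213 bins higher and 403 to 1118 lower, and 2038 to 3793 higher and 0 to 3 lower among bins of 4 times input or more. Against HT29 the same gave 2075 to 4509 larger and 129 to 517 smaller, and 1133 to 2360 larger among bins of 4 times input or more.

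Without centring 494 bins were lower, 0 of them at 4 times input or more, and 281 were smaller in SW480 than in HT29. Centred on bins of 4 times input or more, 1042 were higher and 68269 lower, with 826 and 584 in that class. Centred on bins of like signal, 2988 were lower, and in that class 2162 were higher and 9 lower. A mean signal of at least 2 gave 2505 higher and 2380 lower, with 1950 and 16 in that class, from fewer bins, and a minimum of 0.5 gave 322 lower. Subtracting the input gave 14529 higher and 12577 lower, with 7 lower in that class, and the error of the single input does not enter this fit. Bins of 4 times input or more fitted alone gave 3981 higher and 4 lower. The 2 lower bins of that class became 1 with a pseudocount of 0.25, with 2, with bins shifted by 100 bp and with a robust variance estimate, which was chosen after seeing the data, as was the class set on the mock tracks alone, with a mean mock signal of at least 2, where 907 of 1880 bins were higher and 730 were larger in SW480 than in HT29.

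The median change of all bins was 0.34 with a minimum of 2, -0.017 with 0.5, 0.21 after input subtraction and 0.79 in bins of 4 times input or more. Promoter minus distal change was 0.20 and 0.094 with pseudocounts of 0.25 and 2, 0.25 and 0.067 with minimums of 2 and 0.5, 0.34 after input subtraction, 0.12 centred on bins of like signal and -0.076 in bins of 4 times input or more. κB minus other bins was 0.48 with a pseudocount of 0.25, 0.51 and 0.056 with minimums of 2 and 0.5, and 0.14 in bins of 4 times input or more.

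Centred on bins of 4 times input or more, 24 named regions turned negative, at -0.13 for the second region near MYC, -0.23 JUNB, -0.31 NFKBIA, -0.35 TNFSF10, -0.17 NFKB2, -0.39 RELB, -0.64 IRAK2, -0.35 CXCL5, -0.24 CX3CL1, -0.11 IL32, -0.095 LIF, -0.33 BIRC3, -0.36 DUSP10, -0.37 PER1, -0.19 CRY2, -0.19 BCAR1, -0.39 RRAS, -0.29 MAP2K3, -0.030 TGIF1, -0.019 WNT10A, -0.13 TCF7L2, -0.26 VDR, -0.026 IRF1 and -0.034 RPS2. Centred on bins of like signal, 8 did, at -0.025 for TNFSF10, -0.074 RELB, -0.33 IRAK2, -0.030 CXCL5, -0.012 BIRC3, -0.072 DUSP10, -0.046 PER1 and -0.065 RRAS. Without centring the first region near MYC was 0.044, TNFAIP3 4.194e-05 and CBFB 0.023. After input subtraction they were 0.25, 0.093 and 0.63, and IRAK2 was -0.17. IRAK2 was -0.022 with a pseudocount of 0.25. Leaving out replicates gave -0.25 to 0.13 at MYC, -0.22 to 0.19 at TNFAIP3, -0.17 to 0.27 at IRAK2, -0.13 to 0.00062 at CBFB and -0.067 to 0.70 at RRAS.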
